A study of Mus musculus with 2 samples.

Results

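The genes described here encode enzymes that make serine and glycine, break down threonine and hand carbon units to folate, and they were followed in mouse induced pluripotent stem cells (iPSCs), body cells reprogrammed to pluripotency. The list holds 10 genes chosen by name: Phgdh, Psat1, Psph, Shmt1, Shmt2, Gldc, Mthfd1, Mthfd2, Tdh and Gcat. A probe set of their own, meaning one that the platform table assigns to a single gene, existed for 8 of the 10, out of 12393 such genes on the array, and these 8 genes had 21 probe sets between them. No probe set used here carries the name Tdh, and the 3 probe sets of Gcat are also assigned to Galr3, so Tdh and Gcat were not analysed here. The study compared 1 hybridized sample with 1 live sample of iPSCs, both grown in serum medium for mouse embryonic stem cells with 2i, a pair of kinase inhibitors, and each measured on 1 Affymetrix array. The labels give no genotype, strain, line or passage, and do not say what hybridization involved. With 1 array per group there is no replicate error and no test, and every difference is between these 2 preparations only.

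In mammalian cells serine is made from a glycolytic intermediate in a short pathway in which Phgdh, Psat1 and Psph act in turn. The hydroxymethyltransferases Shmt1, in the cytosol, and Shmt2, in mitochondria, split serine into glycine and a carbon unit carried by folate, and Mthfd1 and Mthfd2 then convert that unit between its oxidation states for nucleotide synthesis. Gldc begins the glycine cleavage system, another mitochondrial source of folate-bound carbon. Mouse pluripotent cells are known to lean on threonine as a source of glycine, through Tdh and then Gcat.

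Values are log2, and each difference is the hybridized value minus the live value, so a difference of at least 1 in size is 2-fold. All 21 probe sets had a mean of the arrays of 5 or more, the level above which genes were compared. All 9 pluripotency markers checked reached that level at their brightest probe sets. There they read from 8.32 to 13.17 on the hybridized array and from 7.34 to 13.03 on the live array. Their differences ran from -0.70 for Pou5f1 to 0.98 for Dppa3, with a median of -0.01. The other probe set of Esrrb was under the level, at 4.29 on the hybridized array and 3.07 on the live array. Of 12 fibroblast markers 3 reached the level (Vim, Fn1 and Col1a1), and of 4 measured hepatocyte markers 0 did. At their brightest probe sets the 3 fibroblast markers at the level lay below 0, with a median of -0.53. Col1a1, a collagen, was at -1.71 (4.46 on the hybridized array, 6.17 on the live array) but at 0.40 on its other probe set, under the level. Vim differed by -0.15 and -0.36, but by 1.32 on 1450641_at (11.57 on the hybridized array, 10.25 on the live array). Under the level, Pdgfrb differed by -1.60 and Twist1 by -1.22, Col1a2 and Col3a1 by 0.04 and 0.19, and the others by -0.69 to -0.19. The part of these in the members' differences was not tested.

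Taking the brightest probe set of each gene, Shmt2, Gldc and Phgdh were 2-fold or more lower on the hybridized array. The other 5 were within 2-fold. Psph alone was higher, and the median of the 8 genes was -0.715. Over all 7262 genes compared, 15.4% were at least 2-fold lower and 8.43% at least 2-fold higher, with a median of -0.165. Against that, 3 of the 8 were 2-fold lower and 0 were 2-fold higher, and 7 of 8 lay below 0 as did 58.5% of all genes. The sign of small differences depended on the centring of the arrays: taking the spiked-in hybridization controls as unchanged adds 0.80 to each difference, after which 0 of the 8 were 2-fold lower, against 2.84% of all genes, and Psat1, Shmt1, Mthfd1 and Mthfd2 turned positive.

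The promoters of Shmt2, Gldc and Phgdh are shown because these 3 genes had the lowest differences. Each sequence is the 250 bases before the transcription start in RefSeq (GRCm38.p6), 5' to 3' on the gene's strand, with motif matches in capitals.
Shmt2, GRCm38.p6 chr10:127522445-127522694, minus strand: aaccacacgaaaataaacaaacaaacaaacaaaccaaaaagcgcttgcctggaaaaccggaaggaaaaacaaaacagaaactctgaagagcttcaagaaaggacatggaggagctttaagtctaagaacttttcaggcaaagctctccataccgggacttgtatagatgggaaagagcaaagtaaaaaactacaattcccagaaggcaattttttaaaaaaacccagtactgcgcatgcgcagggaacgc
Gldc, GRCm38.p6 chr19:30175442-30175691, minus strand: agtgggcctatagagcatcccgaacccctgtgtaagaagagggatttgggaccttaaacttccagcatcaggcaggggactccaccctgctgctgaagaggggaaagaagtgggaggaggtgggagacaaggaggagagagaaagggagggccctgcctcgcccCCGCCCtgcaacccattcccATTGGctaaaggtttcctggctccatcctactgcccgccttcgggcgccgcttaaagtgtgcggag
Phgdh, GRCm38.p6 chr3:98339970-98340219, minus strand: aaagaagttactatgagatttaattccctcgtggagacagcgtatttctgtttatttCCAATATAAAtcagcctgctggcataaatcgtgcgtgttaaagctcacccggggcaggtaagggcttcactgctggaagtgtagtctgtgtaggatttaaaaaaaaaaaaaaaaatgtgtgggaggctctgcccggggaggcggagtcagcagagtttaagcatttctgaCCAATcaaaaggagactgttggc
The motifs searched on both strands were the CCAAT box (CCAAT), the GC box (GGGCGG), the E-box (CACGTG), the composite element bound by ATF4 (TGATGNAA) and the TATA box (TATAAA). In Phgdh the first CCAAT and the TATAAA match overlap. A CCAAT match was found in 7 of the 9 member promoters read (all but Tdh), and in 34.5% of 27025 gene promoters of the same length, or 37.5% of the 5997 that belong to genes compared here. A GC box was found in 5 of the 9, against 32.9% of all promoters and 63.3% of those of genes compared. TATAAA occurred in 1 of the 9, that of Phgdh, against 13% of all promoters and 5.7% of those of genes compared. CACGTG and TGATGNAA were in 0 of the 9 windows, against 6.05% and 3.53% of all promoters and 8.87% and 1.82% of those of genes compared. No motif was found in all 3 of the promoters shown: Shmt2 had none of the 5 motifs, Gldc had a GC box and a CCAAT box, and Phgdh had 2 CCAAT boxes and the TATAAA.

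Phgdh (Entrez 236539), the dehydrogenase that commits carbon to serine synthesis, was lower on 3 of its 4 probe sets. It read 10.21 on the hybridized array and 11.33 on the live array on 1454714_x_at, its brightest, a difference of -1.12. On 1456584_x_at it read 8.28 and 9.51, and on 1437621_x_at 9.81 and 10.69 on the hybridized and live arrays, differences of -1.23 and -0.88. The arrays did not differ on 1426658_x_at, at 8.11 on the hybridized array and 8.10 on the live array. All 4 carry the suffix _x_at, which marks probes that can also match other transcripts, and 2 further probe sets assigned to Phgdh together with Gm6756 and Gm8096 were not used.

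Psat1 (Entrez 107272), the aminotransferase of the second step, had 12.65 on the hybridized array against 13.11 on the live array on 1454607_s_at. Its other probe set, 1451064_a_at, gave 11.41 and 11.81 for hybridized and live. These differences, -0.46 and -0.40, were the closest to each other of any member with more than 1 probe set. Psph (Entrez 100678), the phosphatase that releases serine, went the other way on its only probe set, 1415673_at, with 10.46 on the hybridized array and 9.71 on the live array, a difference of 0.75. At their brightest probe sets the enzymes of the serine pathway did not read alike, with Phgdh 2-fold lower, Psat1 slightly lower and Psph higher. Phgdh was 2-fold lower only on 1454714_x_at and 1456584_x_at, and its mean over probe sets was -0.80. All its probe sets are of the _x_at class, whose median over the whole array was -0.38. The part of the class in this contrast was not tested.

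**Figure D1:**
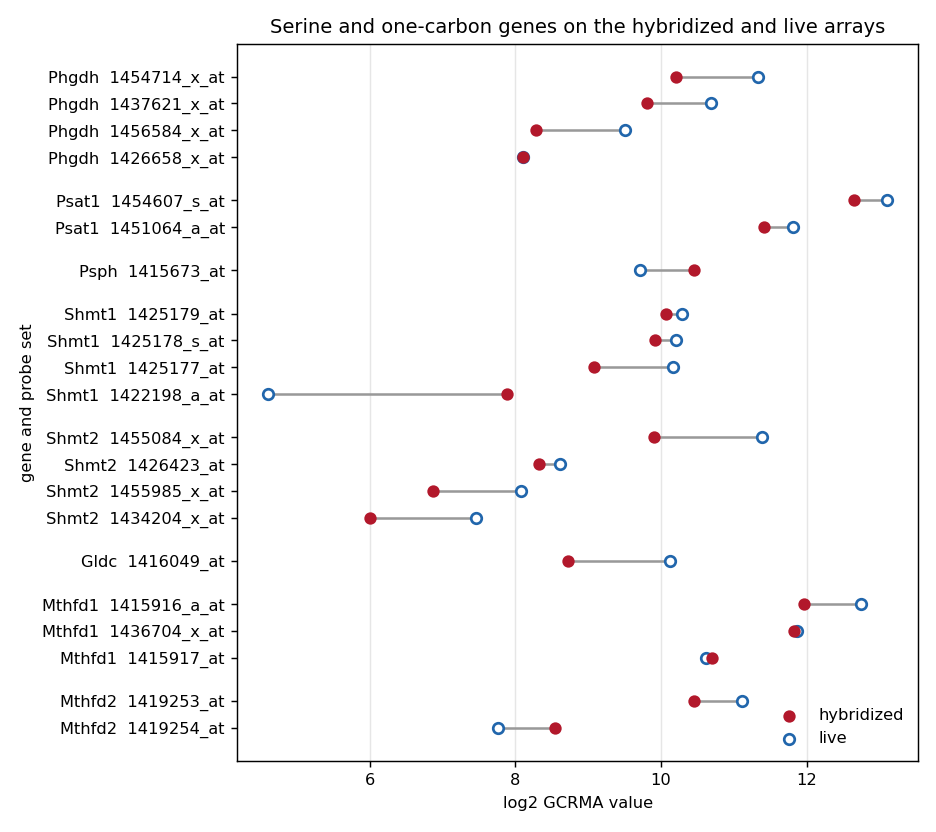
The log2 value (horizontal axis) of each of the 21 probe sets of the 8 measured genes, 1 row per probe set, with filled red points for the hybridized array and open blue points for the live array. Lines join the pair; the longest is that of Shmt1 on 1422198_a_at, at 7.88 on the hybridized array and 4.61 on the live array, and it runs opposite to the other probe sets of Shmt1.

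Shmt2 (Entrez 108037), the mitochondrial hydroxymethyltransferase, was lower on each of its 4 probe sets. It read 9.91 on the hybridized array and 11.39 on the live array on 1455084_x_at, a difference of -1.48 and the lowest of the 21. On 1434204_x_at it read 6.0 and 7.46, and on 1455985_x_at 6.87 and 8.08 on the hybridized and live arrays. The probe set without a suffix, 1426423_at, gave 8.32 on the hybridized array against 8.61 on the live array, a difference of only -0.29. The 2-fold reading of Shmt2 thus came from _x_at probe sets, and leaving out the _x_at and _s_at classes left it at -0.29.

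Shmt1 (Entrez 20425), the cytosolic counterpart, differed little on its brightest probe sets, with 10.07 on the hybridized array and 10.29 on the live array on 1425179_at, and 9.92 and 10.20 on 1425178_s_at. On 1425177_at it was 2-fold lower, at 9.08 on the hybridized array against 10.16 on the live array. On 1422198_a_at it was 9.65-fold higher, at 7.88 on the hybridized array against 4.61 on the live array, where the live value lies under the level of 5. The brightest probe sets of both enzymes lay below 0, at -1.48 for Shmt2 and -0.22 for Shmt1, while the mean over all 4 probe sets was -1.11 for Shmt2 and 0.42 for Shmt1.

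Gldc (Entrez 104174), the decarboxylase of glycine cleavage and a gene known for high expression in pluripotent cells, read 8.73 on the hybridized array and 10.12 on the live array on 1416049_at. That difference of -1.39 is 2.62-fold and rests on a single probe set, one with no suffix. The measured partners of Gldc were not 2-fold lower. Gcsh, the carrier protein of the system, was slightly lower, at 12.09 on the hybridized array and 12.57 on the live array, a difference of -0.48. Dld, a dehydrogenase that also serves the pyruvate dehydrogenase complex, was 3.56-fold higher, at 10.70 on the hybridized array against 8.87 on the live array. Amt, the aminomethyltransferase, was not analysed here.

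Mthfd1 (Entrez 108156), the trifunctional folate enzyme of the cytosol, had 11.97 on the hybridized array and 12.75 on the live array on 1415916_a_at. Its other probe sets differed little, with 11.83 and 11.87 on 1436704_x_at and 10.70 and 10.62 on 1415917_at on the hybridized and live arrays. Mthfd2 (Entrez 17768), a mitochondrial folate dehydrogenase and cyclohydrolase high in proliferating cells, gave opposite readings on its probe sets. It read 10.46 on the hybridized array against 11.11 on the live array on 1419253_at, but 8.55 against 7.76 on 1419254_at, differences of -0.65 and 0.79 whose mean is 0.07. Both of these carry no suffix and were designed from the same sequence record, per the platform table. No direction can be given for Mthfd2 from these arrays.

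Counted by probe set, 7 of the 21 were at least 2-fold lower, against 12.8% of 11407 single-gene probe sets at the level, and 1 was at least 2-fold higher, against 13.1%. The lower readings were concentrated by probe set class. Of the 8 member probe sets ending in _x_at, 5 were 2-fold lower, and of the 8 without a suffix 2 were, Gldc and 1 of Shmt1. The same class was lower over the whole array: the 841 _x_at probe sets had a median of -0.38, with 74.7% below 0, 17.8% at least 2-fold lower and 2.02% at least 2-fold higher. The 7339 probe sets without a suffix had a median of -0.01, with 12.3% at least 2-fold lower and 13.5% higher. The medians of the members were -1.165 for _x_at and -0.255 for those without a suffix, both below the class, but these 16 probe sets come from 7 genes and are not independent. The part of the class in the readings of Phgdh and Shmt2 was not tested.

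**Figure D2:**
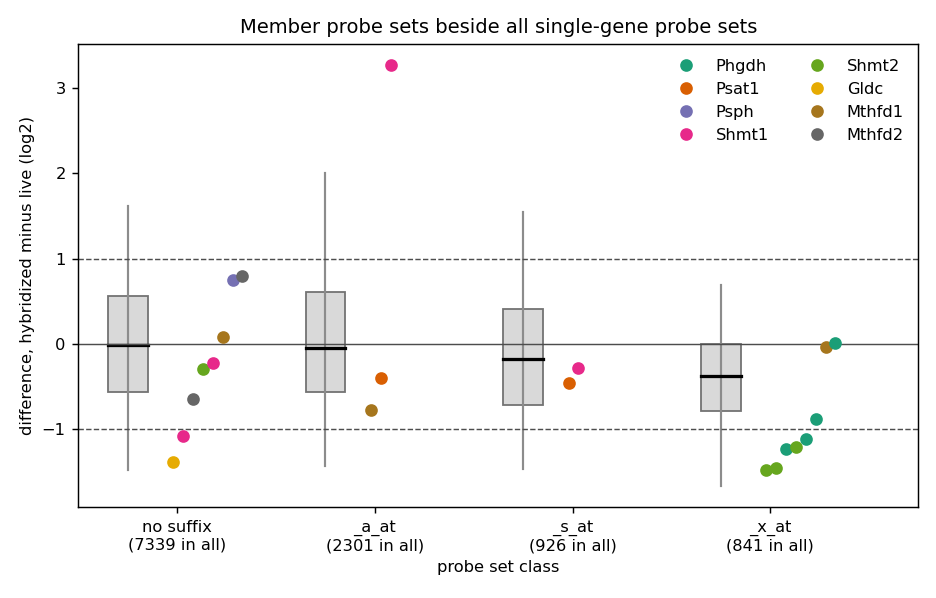
Difference in log2 value, hybridized minus live (vertical axis), by probe set class, with dashed lines at 2-fold. Boxes span the middle 50% of all single-gene probe sets of the class at the level, the thick line is the median, thin lines reach the 5th and 95th percentiles, and coloured points are the member probe sets. In the _x_at class the points of Shmt2, and those of Phgdh except 1426658_x_at (0.01), lie under the box but above the 5th percentile (-1.67).

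Level also bears on how far a gene differed. Shmt2, Gldc, Phgdh, Mthfd2, Psph and Shmt1 had brightest probe sets with means from 9 to under 11, a range in which 10.6% of 2325 genes were at least 2-fold lower and 9.12% higher, with an SD of 0.80 over genes. Psat1 and Mthfd1 had means of 11 or more, where 3.48% of 1521 genes were at least 2-fold lower and the SD was 0.53. Control probe sets for the 5' end of transcripts also gained on those for the 3' end on the hybridized array, by 2.52 for Actb, 1.81 for Gapdh and 0.50 for Tfrc. The position of each member's probes along its transcript was not used here, and the part of this shift in the members' differences was not tested.

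The other genes of the pathway came from 6 lists of 48 genes, of which 33 had a probe set of their own and 30 reached the level. At the brightest probe set 3 were at least 2-fold lower, Slc19a1, Fpgs and Cbs, and 5 at least 2-fold higher, Srr, Ppat, Dld, Mtfmt and Folr1. Over all genes compared the shares were 15.4% lower and 8.43% higher. The median of the 30 was -0.12, close to that of all genes, and 17 of 30 lay below 0. With control centring, 2 were 2-fold lower and 11 higher (36.7%), when 2.84% of all genes were 2-fold lower and 31.8% higher.

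The 2 lowest of these genes, Slc19a1 and Fpgs, had means from 7 to under 9, a range in which 20.6% of all genes were at least 2-fold lower. Slc19a1, the reduced folate carrier, was lower on each of its 3 probe sets, with 6.55 on the hybridized array against 8.82 on the live array on the brightest. The others differed by -2.29 and -1.60. Fpgs, which adds glutamates to folate and so keeps it in the cell, read 6.48 on the hybridized array and 8.54 on the live array on its single probe set. Slc46a1, the proton-coupled folate transporter, read 6.83 on the hybridized array and 7.74 on the live array on its brightest probe set, and 5.57 against 6.57 on the other, a 2-fold difference that becomes its value when _s_at probe sets are left out. Folr1, a folate receptor, stood on the other side at 9.06 on the hybridized array and 8.06 on the live array, exactly 2-fold. Among carriers of serine, glycine and glutamine, Slc6a9 differed by -0.92, Slc1a5 by -0.88 and Slc1a4 by -0.36. Sfxn1, the mitochondrial serine carrier, differed by 0.64 on its brightest probe set and by -0.78 on the other. In all, 5 of the 7 measured carriers lay below 0, against 58.5% of all genes, with a median of -0.88. With control centring that median was -0.08 and 4 of the 7 lay below 0, while over all genes the median was 0.635 and 21.3% lay below 0. Slc1a5, Slc46a1 and Slc6a9 were then at -0.08, -0.11 and -0.12, and Slc1a4 was above 0.

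In the methionine cycle and transsulfuration, Cbs, which joins serine to homocysteine, was 3.05-fold lower, at 7.93 on the hybridized array against 9.54 on the live array, and differed by -0.93 on its second probe set. Cth, the next enzyme of that route, differed by -0.34 and Ahcy, which releases homocysteine, by -0.80. Mtrr, which keeps methionine synthase active, was the highest of the list at 11.04 on the hybridized array and 10.09 on the live array. Gnmt, a glycine methyltransferase, stayed under the level.

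Purine synthesis spends the carbon units that Shmt and Mthfd enzymes supply. Ppat, the first enzyme of the route, was 4.50-fold higher on 1428543_at, with 12.65 on the hybridized array and 10.48 on the live array, but close to equal on its second probe set, at 11.32 on the hybridized array and 11.43 on the live array. Adsl differed by 0.79, and on their brightest probe sets Paics differed by 0.10 and Gart, which uses formyl folate, by -0.06. The other probe sets of Paics differed by 0.12 and -0.54, and those of Gart by -0.30 and 0.24. Tyms, thymidylate synthase, stayed under the level. Among folate enzymes outside the member list, Mtfmt, which formylates the mitochondrial initiator methionine, was 2.03-fold higher, at 7.69 on the hybridized array against 6.67 on the live array. Ggh, which trims folate glutamates, differed by -0.41 and Aldh1l1 by -0.18.

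Of the enzymes that consume serine or threonine, Srr, serine racemase, differed most. It read 9.33 on the hybridized array and 6.15 on the live array on 1438550_x_at, and 9.35 against 5.73 on 1438549_a_at. Its 2 remaining probe sets were under the level and differed by -0.25 and 0.29. Ptdss1, which makes phosphatidylserine, differed by -0.90, -0.80 and -0.37 on its 3 probe sets. Sars, the seryl-tRNA synthetase, differed by -0.81 and Tars, the threonyl-tRNA synthetase, by 0.49. Sptlc1 and Sptlc2, the subunits of serine palmitoyltransferase, differed by 0.33 and -0.05.

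**Figure D3:**
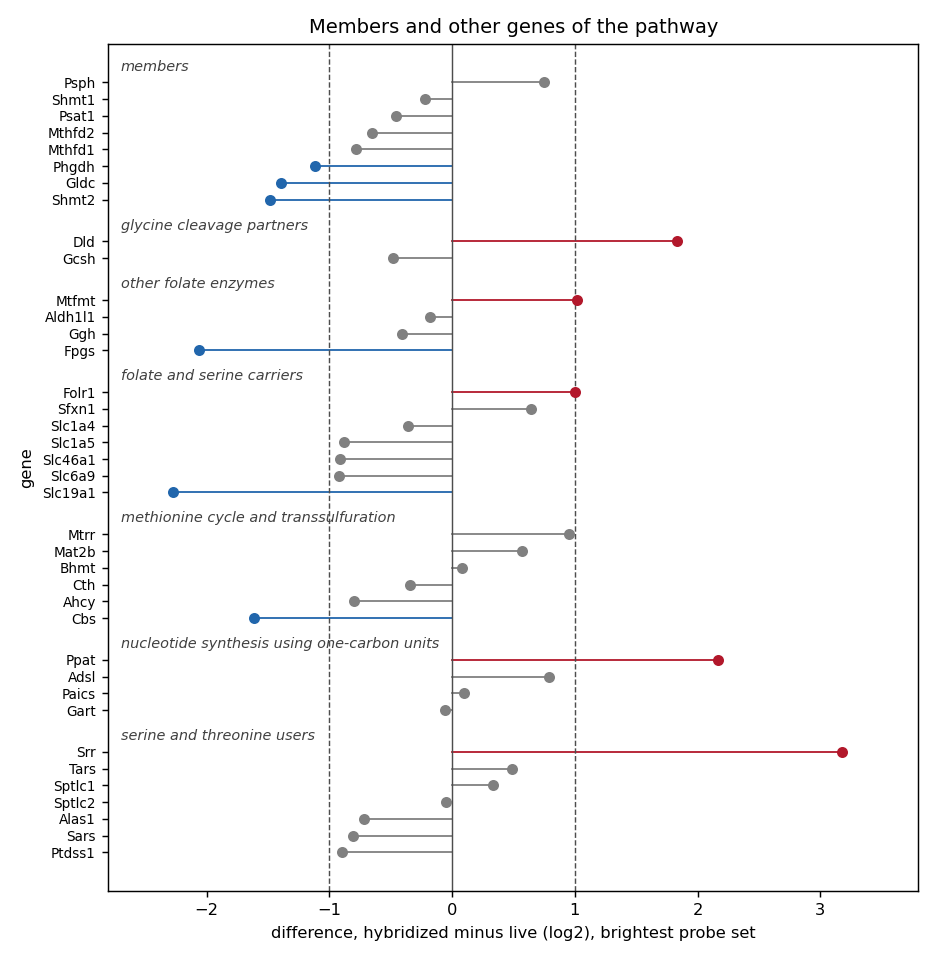
Difference in log2 value, hybridized minus live (horizontal axis), at the brightest probe set of the 8 members and of the 30 other pathway genes at the level, grouped by list, with dashed lines at 2-fold. Blue points are at least 2-fold lower on the hybridized array (6 genes, from Slc19a1 at -2.27 to Phgdh at -1.12), red points at least 2-fold higher (5 genes, up to Srr at 3.18), and grey points lie between.

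Across the processing tried, the members differed in how far their readings moved. Gldc stayed 2-fold lower except when centred on the hybridization controls, where it differed by -0.59. With a single probe set without a suffix, Gldc could be moved only by centring, loess or quantile normalization. Its value of -1.39 under the other settings was fixed by construction. Shmt2 was below 0 throughout, from -1.54 to -0.29, and 2-fold lower in 8 of 11 settings. Those 8 include the level limits, which left it at -1.48 by construction. Its mean over probe sets and its mean over those at the level coincide at -1.11, since all its probe sets are at the level. Without the _x_at and _s_at classes it was at -0.29. Phgdh was below 0 in the 9 settings that gave it a value, from -1.17 to -0.32, but 2-fold lower in only 5 of them: it differed by -0.96 when centred on the median gene and by -0.80 as the mean over its probe sets. Those 5 include the level limits, which left it at -1.12 by construction. The rest were loess, at -1.10, and quantile normalization, at -1.17. Psph was above 0 throughout, from 0.69 to 1.55. Like Gldc, it has a single probe set without a suffix and could be moved only by centring, loess or quantile normalization. Psat1 lay below 0 except with control centring, at 0.34. Shmt1, Mthfd1 and Mthfd2 changed sign with the choice of probe sets or of centring, Shmt1 between -0.29 and 0.58, Mthfd1 between -0.78 and 0.08 and Mthfd2 between -0.70 and 0.15.

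**Figure D4:**
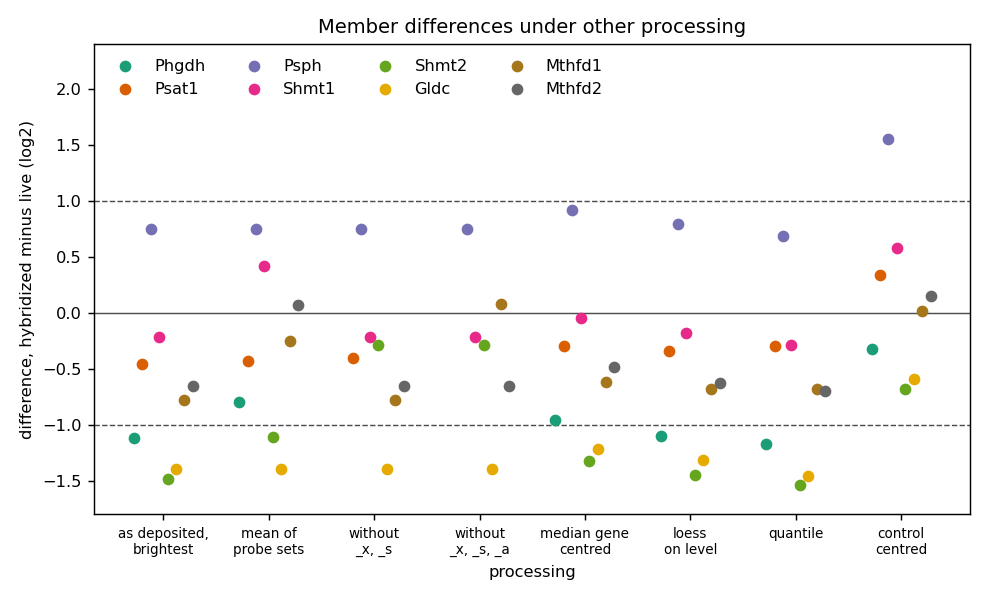
Difference in log2 value, hybridized minus live (vertical axis), of each measured gene under 8 ways of processing (horizontal axis), with dashed lines at 2-fold. Gldc (yellow) lies lowest or close to lowest and Psph (violet) highest in every column; Phgdh and Psat1 have no point where their probe set classes were left out.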

How the data were processed

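Mouse iPSC RNA from 1 hybridized and 1 live sample, grouped by the sample type in the labels, was extracted with Trizol LS, amplified with a NuGEN Ovation kit and labelled with biotin, per the labels' protocols. The deposited table gives a single number for every probe set on either array, taken here as log2 values; the base was inferred from the range of 1.02 to 14.24 and from GCRMA, which with affy is named in the submitters' processing notes. GCRMA corrects background by probe base composition and puts arrays on a common scale. For its version, and for the arrays processed together, the sources used here give nothing. Of 22690 probe sets, 64 are controls and 20380 have a single gene in the platform table. Symbols were matched by Entrez ID to RefSeq (GRCm38.p6) for 12369 of 12393 genes. Promoters come from RefSeq tables.

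A gene was read at its brightest probe set by mean, if that mean was 5 or more, and a difference of at least 1 in size was called 2-fold. All probe sets of the members are given. Pathway genes at least 2-fold apart, and the lowest and highest of each list, were named by rule; others were chosen after their values were seen. The members and lists were chosen with earlier results of these data known. No model was fitted, since each group has 1 array; precision is limited by that number. The alternatives were levels of 4, 7 or none, the mean over probe sets, leaving out suffixed probe sets, centring on the median gene or on 18 hybridization controls, loess (span 0.3), quantile normalization and folds of 1.5 and 4; the mean over probe sets at the level was added after the data were seen. The calling step was tested on simulated data with planted differences far above the 2-fold limit and little noise. That checks the code and not the accuracy of calls near 2-fold in these data. Python 3.11.15, numpy 2.4.6, pandas 2.3.3, statsmodels 0.14.6 and matplotlib 3.10.9 were used.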

Additional observations from a re-analysis of the deposited data

How the results depend on the processing

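The count of members at least 2-fold lower, 3 as deposited, was 2 or 3 under 8 of the 13 alternatives, 1 of 6 genes left without _x_at, _s_at and _a_at and 1 of 7 without _x_at and _s_at, 0 with centring on the hybridization controls, 5 at 1.5-fold and 0 at 4-fold. Those 8 include the level limits, which could not change the count for the members. Over all genes, 800 of 5802 were at least 2-fold lower without _x_at, _s_at and _a_at, and 998 of 6982 without _x_at and _s_at. The members' shares without the suffixed probe sets were close to those of all genes. The count of members at least 2-fold higher, 0 as deposited, was 1 (Psph) with control centring and 1 at 1.5-fold. For the other pathway genes, 5 higher and 3 lower as deposited, the counts were 11 higher with control centring, 8 higher and 10 lower at 1.5-fold, and 2 higher at 4-fold. For all genes, 612 higher and 1115 lower as deposited, they were 713 lower at a level of 7, 724 lower (845 higher) after loess, 814 higher and 833 lower after centring on the median gene, 2310 higher and 206 lower with control centring, 1268 and 2169 at 1.5-fold, and 87 and 113 at 4-fold. Fewer genes enter without the suffixed probe sets: Phgdh drops out, while Shmt2 stays in and is read at -0.29 on 1426423_at instead of -1.48. A common shift accounts by construction for the change with control centring, and the 18 controls themselves differed by -1.22 to -0.15. Of 407 differences of single members and pathway genes under alternatives, 357 kept their sign and their side of 2-fold, 50 did not, and none of those at least 2-fold apart changed sign. The 357 include the level limits, which leave the difference of any gene they keep unchanged. No paired analysis was possible because each group has 1 array. Low signal limits the readings of probe sets near a level of 5, such as that of Shmt1 at 4.61 on the live array.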

Other observations

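The disagreement among the probe sets of Shmt1 can be set beside that of other genes. Its 4 probe sets, at the level by their means, spanned 4.35 log2 units, from -1.08 to 3.27. Over 320 genes with at least 4 probe sets at the level the median span was 1.48, the 90th percentile was 3.02, and 14 genes, Shmt1 included, spanned at least as much as Shmt1. The widest were Arf6, a small GTPase, at 6.39, Gdi2, a Rab regulator, at 6.13 and Arih2, a ubiquitin ligase, at 5.42, chosen after their values were seen. In each of these 3 one or more probe sets read far higher on the hybridized array, up to 4.75, 5.51 and 4.71, while the median over the gene's probe sets was 0.065, 0.065 and -0.115. The spans of Phgdh (1.24) and Shmt2 (1.19) were below that median. Mthfd2, with 2 probe sets, spanned 1.44, and 710 of 2720 genes with at least 2 spanned as much or more.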
